A study of Mus musculus with 15 samples.

Results

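The genes described here are 46 mouse genes of DNA replication and the cell cycle, 29 that act or peak around the G1/S transition and 17 that act or peak in G2 and mitosis. They were taken by name, or by an older synonym, among the exon array probesets that the platform annotation assigns to exactly 1 gene. A value was obtained for 43 of them, out of 16185 genes on the array, 28 in the G1/S group and 15 in the G2/M group. Rrm2, Ccnb1 and Cenpf had no value among these probesets, and only their promoters are counted here. Orc1 had a value but no group mean above the level filter of log2 6.59, so that 42 members were among the 9919 genes tested. Cdk1, Cdc45, Orc1 and Orc6 were found under the older names Cdc2a, Cdc45l, Orc1l and Orc6l.

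RNA of 2 mouse cell lines was measured on 15 Affymetrix exon arrays, 8 of 3134 and 7 of AtT-20. The groups were 3134 cells after 2 h, 4 h and 8 h in 100 nM dexamethasone, a synthetic glucocorticoid that activates the glucocorticoid receptor, with 3134 cells at 0 h as their controls, and AtT-20 cells at the same 4 times. There were 2 arrays per group, and a single one for AtT-20 at 8 h. The line 3134 came from C127 cells, themselves from a mammary adenocarcinoma of an RIII mouse, and was made by transformation. AtT-20 cells derive from pituitary corticotrophs, of the anterior lobe, and their strain is LAF1. All cultures, controls included, spent 48 h in 10% serum that had been stripped with charcoal and dextran before the hormone was added, the 0 h cells are called both untreated and vehicle treated in the labels, and no culture was kept for 2, 4 or 8 h without hormone. Whether the replicates came from separate cultures is not in the labels, and the p-values then stand for the spread of these arrays alone, possibly a technical one. The sample titles carry serial numbers that fall into a lower and a higher range in each line, called run 1 and run 2 here, and every group held 1 array per run, save AtT-20 at 8 h with run 1 alone.

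As background, cells license their replication origins in G1, when the origin recognition complex, Cdc6 and Cdt1 load the Mcm2 to Mcm7 helicase onto DNA. Cyclin D with its kinases and then cyclin E relieve E2F transcription factors from pocket proteins of the retinoblastoma family, and E2F factors drive many of the genes of origin licensing, DNA synthesis and nucleotide supply. Genes of mitosis are switched on later, in part through promoter elements called CHR and CCAAT boxes. Fkbp5 and Per1, known glucocorticoid-induced genes, rose in 3134 cells by 2.66 and 2.69 on the log2 scale at 2 h. In AtT-20 cells at 2 h, Per1 rose by 1.32, and Fkbp5 went from 9.76 and 9.59 at 0 h to 10.33 and 10.41. Over a list of 5 such genes the median difference at 2 h was 2.53 in 3134 cells and 0.77 in AtT-20 cells. All 6 corticotroph markers were above log2 6.59 in AtT-20 cells at 0 h. In 3134 cells 5 of 6 mesenchymal markers and 2 of 6 mammary epithelial markers reached that level, the epithelial ones being Krt8, which read 6.84 and 6.70, and Krt14, which read 7.22 and 6.84. In AtT-20 cells 1 of 6 mesenchymal and 2 of 6 mammary epithelial markers reached it, and 0 of 6 corticotroph markers did in 3134. The epithelial markers were higher in AtT-20, where Krt8 read 11.93 and 11.44 and Krt18 read 10.23 and 9.70. In 3134 cells Krt18 read 4.89 and 5.02.

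The promoters of some members are shown here because their letters separate the G1/S from the G2/M members, a property that the choice of members did not use. RefSeq promoters, 250 bases before to 50 bases after the gene start on GRCm38.p6, were available for 36 members as 38 promoters. E2F letters were searched as TTTCCCGC, TTTGGCGC, TTTCGCGC or TTTGCCGC and CHR letters as TTTGAA, each on both strands, and none of the E2F letters contains TTTGAA or CCAAT. In the lines that follow the matches are in capitals. The promoters of Mcm3 (chr1:20820263-20820562, minus strand), Rfc3 (chr5:151651159-151651458, minus strand) and Cdc6 (chr11:98907901-98908200, plus strand) belong to 3 of the G1/S members that were lower in treated 3134 cells, and they hold E2F letters. Of the other G1/S members called lower at 8 h with the run as a block, Cdt1 also holds E2F letters. Those of Cdc45, Rfc4 and Pcna hold none, and Cdc45 holds CHR letters. Mcm4, Gins1 and Ccne2 had no promoter available.
Mcm3: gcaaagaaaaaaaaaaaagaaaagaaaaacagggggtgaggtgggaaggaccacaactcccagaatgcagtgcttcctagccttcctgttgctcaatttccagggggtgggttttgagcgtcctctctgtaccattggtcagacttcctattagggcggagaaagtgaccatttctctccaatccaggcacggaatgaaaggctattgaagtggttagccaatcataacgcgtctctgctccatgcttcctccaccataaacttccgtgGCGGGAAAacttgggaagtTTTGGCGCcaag
Rfc3: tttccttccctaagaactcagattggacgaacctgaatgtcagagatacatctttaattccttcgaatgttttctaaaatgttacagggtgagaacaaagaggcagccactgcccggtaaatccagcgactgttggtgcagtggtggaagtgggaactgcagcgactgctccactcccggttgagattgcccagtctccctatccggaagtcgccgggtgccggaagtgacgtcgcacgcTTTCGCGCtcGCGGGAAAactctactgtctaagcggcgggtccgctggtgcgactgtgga
Cdc6: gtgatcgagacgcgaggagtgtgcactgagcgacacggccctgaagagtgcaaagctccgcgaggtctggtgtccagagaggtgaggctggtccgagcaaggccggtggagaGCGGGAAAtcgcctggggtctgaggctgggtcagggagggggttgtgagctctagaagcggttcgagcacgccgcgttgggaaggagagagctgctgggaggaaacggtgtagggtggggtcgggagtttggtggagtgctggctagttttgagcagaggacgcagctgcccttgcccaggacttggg

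The promoters of Plk1 (chr7:122159185-122159484, plus strand) and Mki67 (chr7:135716330-135716629, minus strand) belong to G2/M members, and both hold CHR letters. The 2 genes had values of opposite sign in 3134 cells at 8 h after quantile normalization, but not on the deposited scale. On the deposited scale all 15 tested G2/M members were below 0.
Plk1: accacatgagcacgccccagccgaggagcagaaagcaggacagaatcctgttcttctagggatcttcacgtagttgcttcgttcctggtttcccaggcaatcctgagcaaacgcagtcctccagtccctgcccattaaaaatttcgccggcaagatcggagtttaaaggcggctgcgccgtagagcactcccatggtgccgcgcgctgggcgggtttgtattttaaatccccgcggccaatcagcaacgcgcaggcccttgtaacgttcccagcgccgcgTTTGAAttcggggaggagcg
Mki67: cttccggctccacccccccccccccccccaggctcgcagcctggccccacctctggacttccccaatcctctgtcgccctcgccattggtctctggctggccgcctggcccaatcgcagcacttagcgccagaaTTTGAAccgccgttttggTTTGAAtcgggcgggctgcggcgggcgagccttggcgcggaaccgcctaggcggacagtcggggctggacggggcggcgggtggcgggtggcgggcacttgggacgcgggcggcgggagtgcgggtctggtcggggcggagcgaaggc

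E2F letters were present in 10 of 24 G1/S promoters (41.7%), in 1 of 14 G2/M promoters (7.14%) and in 744 of 32851 promoters of all genes (2.26%). CHR letters were present in 3 of 24 G1/S promoters (12.5%), in 11 of 14 G2/M promoters (78.6%) and in 17.9% of all promoters. At least 2 CCAAT boxes stood in 37.5% of G1/S promoters, in 71.4% of G2/M promoters and in 11.7% of all. The 1 G2/M promoter with E2F letters was that of Cdk1, the kinase that drives entry into mitosis, and it also held CHR letters. A consensus glucocorticoid response element, GAACANNNTGTTC, was in no member promoter and in 0.0578% of all promoters. Further genes of replication and mitosis split in the same direction, with E2F letters in 31.0% and 9.8% of their promoters and CHR letters in 19.0% and 62.7%. A match of letters is a description and does not show that a factor binds there, and other forms of these elements were not searched.

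**Figure D1:**
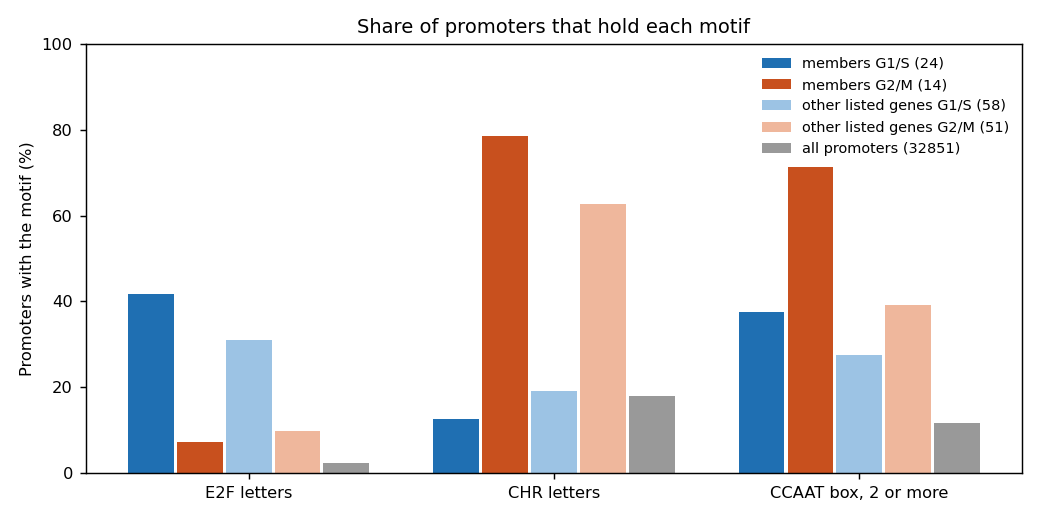
The share of promoters (vertical axis, percent) that hold E2F letters, CHR letters or at least 2 CCAAT boxes, for G1/S and G2/M members, for the other listed genes of replication and mitosis, and for all RefSeq promoters, with the number of promoters in the legend. E2F letters are most frequent in the G1/S promoters (41.7%) and CHR letters in the G2/M promoters (78.6%).

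In 3134 cells 26 of the 27 tested G1/S members had lower fitted levels after 8 h of dexamethasone than at 0 h, and 5 of the 15 tested G2/M members did after quantile normalization, though all 15 did on the deposited scale. The median difference between 8 h and 0 h was -0.43 (log2) over the G1/S members and 0.07 over the G2/M members, against -0.01 over all 9919 genes. In the comparison of 8 h with 0 h without the serial run in the model, limma called 0 of the 42 members at an adjusted p under 0.05, where 2.19% of all genes were called. At an unadjusted p under 0.05 it counted 12 members, all lower, and 1140 genes of all 9919. With the serial run as a block, 11 members were lower and 0 higher, where 3.60% of all genes were called lower and 7.90% either way. Of those 11, 10 were G1/S members (Cdc6, Cdt1, Mcm3, Mcm4, Cdc45, Gins1, Rfc3, Rfc4, Pcna and Ccne2) and 1 was a G2/M member, Mki67. That count was 6 without the 8 h array of run 1, 2 without the 8 h array of run 2, 0 without the 0 h array of run 1 and 1 without the 0 h array of run 2. In bulk RNA, fewer cells in S phase and less of each transcript per cell cannot be told apart.

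The licensing factors held the largest single difference. Cdc6, which loads the helicase onto origins, had log2 levels of 9.06 and 9.70 at 0 h, 8.42 and 9.27 at 2 h, 8.25 and 9.29 at 4 h, with 8.41 and 8.31 at 8 h in 3134 cells. Both 8 h arrays lay below both 0 h arrays, and the difference to 0 h within the same run was -0.66 in run 1 and -1.39 in run 2. The fitted difference at 8 h was -1.02 ± 0.35 (SE; 2.03-fold lower), with a limma adjusted p of 0.221, and 0.0142 with the run as a block. Mcm3, a subunit of the helicase, had levels of 10.00 and 10.43 at 0 h, 9.54 and 10.35 at 2 h, 9.75 and 10.23 at 4 h, with 9.13 and 9.68 at 8 h. Its fitted difference at 8 h was -0.80 ± 0.28 (SE; 1.75-fold lower), with a limma adjusted p of 0.243, and 0.00477 with the block. Within a run the 2 differences of Mcm3 were -0.87 and -0.74, nearer to each other than those of Cdc6. Cdt1, which works with Cdc6 in loading, was lower at 8 h by -0.64 ± 0.21 (SE) and Mcm4 by -0.57 ± 0.27 (SE), and both passed limma only with the block (adjusted p = 0.0111 and 0.0395).

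Not every licensing gene followed. The 5 other helicase subunits ran from -0.57 (Mcm4) to -0.08 (Mcm7) at 8 h, and Mcm2, Mcm5 and Mcm6 had -0.22, -0.40 and -0.35. Mcm10, which acts when the loaded helicase starts, had -0.44 ± 0.23 (SE) and was not called in either fit. Orc6, a subunit of the origin recognition complex, had a difference of 0.00 ± 0.19 (SE), and was the only tested G1/S member not below 0 after quantile normalization. That value comes from the median over probesets on each array, and 7 of the 8 Orc6 probesets were lower at 8 h in both runs. Gmnn, which encodes the Cdt1 inhibitor geminin, read -0.44 ± 0.60 (SE). Its arrays differed more by run than by time, with 6.16 to 6.91 on the 4 arrays of run 1 and 7.44 to 7.72 on the 4 arrays of run 2. Orc1, left out of the test, had 6.30 and 6.59 at 0 h and 5.82 and 5.10 at 8 h, all at or below the level filter.

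Genes that act at the origin after loading and at the replication fork had lower values too. Cdc45 and Gins1, parts of the active helicase, had differences at 8 h of -0.60 ± 0.25 and -0.61 ± 0.31 (SE), each called by limma only with the block (adjusted p = 0.0294 and 0.0387), while Gins2 had -0.17 ± 0.19 (SE). Rfc3, a subunit of the clamp loader, had levels of 9.56 and 9.51 at 0 h, 9.10 and 9.08 at 2 h, 9.03 and 9.10 at 4 h, with 9.02 and 8.63 at 8 h. It was already below both 0 h arrays on every treated array of 3134. Among the members it came nearest to the threshold without the block at 8 h, with -0.71 ± 0.17 (SE) and a limma adjusted p of 0.0572, and 0.0101 with the block. The clamp loader subunit Rfc4 had -0.60 ± 0.27 and the sliding clamp Pcna -0.58 ± 0.29 (SE), each called with the block only (limma adjusted p = 0.0342 and 0.0472). The polymerase genes Pola1 and Pole had -0.51 ± 0.45 and -0.41 ± 0.18, the primase gene Prim1 -0.31 ± 0.24, and the nucleotide synthesis genes Tyms and Rrm1 -0.38 ± 0.20 and -0.12 ± 0.16 (SE), none of them called by limma with or without the block.

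All 5 regulators of the G1/S transition lay below 0 at 8 h. Ccne2, a cyclin E gene, had levels of 8.38 and 8.68 at 0 h, 8.06 and 8.84 at 2 h, 8.03 and 8.32 at 4 h, with 7.71 and 7.69 at 8 h. Its 8 h arrays were clear of its 0 h arrays and of its 2 h arrays, and the difference at 8 h of -0.83 ± 0.33 (SE) was called by limma only with the block (adjusted p = 0.317, and 0.0357 with the block). Ccne1, the other cyclin E gene, had -0.43 ± 0.17, E2f1 -0.42 ± 0.16, E2f2 -0.34 ± 0.18 and Ccnd1, which encodes cyclin D1, -0.27 ± 0.39 (SE). None of those 4 was called by limma in either fit. The fit shares 1 spread per gene over both lines. The SE of Ccnd1 therefore includes its AtT-20 arrays, which ran from 4.99 to 6.37, below the level filter. In 3134 cells Ccnd1 had 12.66 and 12.51 at 0 h, with 12.38 and 12.26 at 8 h.

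**Figure D2:**
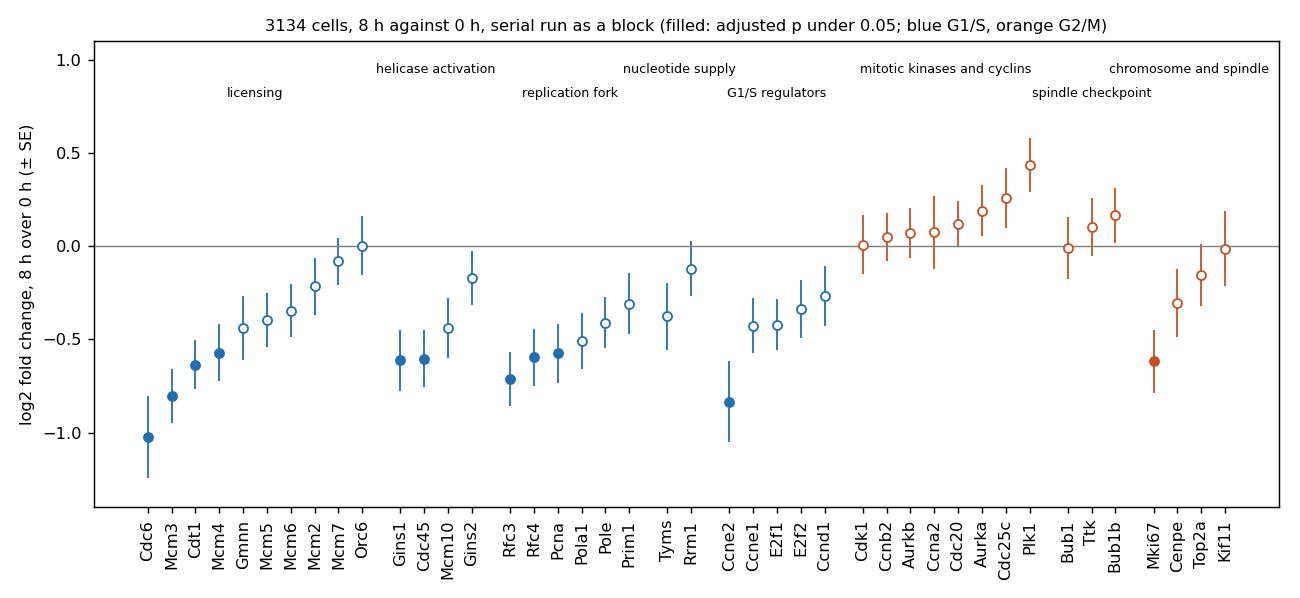
Difference of each tested member between 8 h and 0 h in 3134 cells (vertical axis, log2 fold change with its standard error from the limma fit that has the serial run as a block), in order of role and then of size. Filled points are the 11 members with an adjusted p under 0.05, and the G1/S members in blue lie lower than most of the G2/M members in orange, whose values are all below 0 on the deposited scale.

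The G2/M members had values on both sides of 0 at 8 h after quantile normalization, and all below it on the deposited scale. All 8 measured genes of mitotic kinases, cyclins and their activators had values above 0 at 8 h, between 0.01 and 0.44, after quantile normalization, though 3 of 8 with centred arrays and 0 of 8 on the deposited scale, and none was called by limma in either fit. Plk1, a kinase of mitotic entry and spindle formation, had the highest, with levels of 10.24 and 10.06 at 0 h, 10.24 and 9.99 at 2 h, 10.47 and 10.41 at 4 h, with 10.82 and 10.35 at 8 h. Its arrays at 4 h and 8 h were all above both 0 h arrays, with within-run differences at 8 h of 0.58 and 0.29. The fitted difference at 8 h was 0.44 ± 0.22 (SE), with a limma adjusted p of 0.502, and 0.0957 with the block. Cdc25c, the phosphatase that activates Cdk1, had 0.26 ± 0.25 and Aurka, a spindle pole kinase, 0.19 ± 0.15 (SE). Cdk1 itself had 0.01 ± 0.34, Ccna2 0.07 ± 0.22 and Ccnb2 0.05 ± 0.21 (SE). The spindle checkpoint genes Bub1, Ttk and Bub1b had -0.01, 0.10 and 0.17.

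The only G2/M member called with the block was Mki67, the gene of the Ki-67 antigen on mitotic chromosomes, with levels of 10.56 and 10.58 at 0 h, 10.27 and 10.59 at 2 h, 10.43 and 10.15 at 4 h, with 9.75 and 10.15 at 8 h. Its value at 8 h was -0.62 ± 0.23 (SE), called by limma only with the block (adjusted p = 0.298, and 0.0442 with the block), and it rests on 5 probesets. The other genes of chromosomes and spindle were also below 0 and were not called. The kinetochore motor Cenpe had -0.31 ± 0.27, the topoisomerase Top2a -0.15 ± 0.22 and the spindle motor Kif11 -0.01 ± 0.23 (SE). Of their probesets, 36 of 47 in Cenpe, 33 of 37 in Top2a and 4 of 29 in Kif11 were lower at 8 h in both runs. The share over the probesets of all tested genes was 33.5%. The 2 runs also differed in the G2/M members as a whole, whose median change at 8 h was 0.20 in run 1 and -0.10 in run 2.

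The sign of the G2/M values depended on the scaling of the arrays, while their position above the G1/S members did not. On the deposited scale the median of all genes was -0.38 at 8 h, all 27 G1/S and all 15 G2/M members were below 0, and 19 members were called lower by limma with the block. Over all genes, limma with the block then called 126 higher and 1037 lower, against 427 higher and 357 lower after quantile normalization. Relative to the median of all genes, the median of the G1/S members at 8 h was -0.45 on the deposited scale and -0.41 after quantile normalization, and that of the G2/M members was 0.01 and 0.08. Of the 8 genes of mitotic kinases and cyclins, 6 were above the median of all genes on the deposited scale and with centred arrays, all but Ccnb2 and Cdk1.

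The contrast of both groups can be read on each array as the median level of the G1/S members minus that of the G2/M members, a number in which only its change between arrays has a meaning. In 3134 cells it was -0.87 and -0.86 at 0 h, -1.15 and -0.95 at 2 h, -1.32 and -0.93 at 4 h, with -1.53 and -1.28 at 8 h. Every treated array was below both 0 h arrays, and the 8 h array was the lowest in each run. Its mean change between 8 h and 0 h was -0.54, and between -0.50 and -0.54 under 3 other ways of computing it. In AtT-20 cells it was 0.14 and -0.05 at 0 h, -0.13 and -0.06 at 2 h, 0.22 and 0.00 at 4 h and 0.09 at 8 h. Both 2 h arrays of AtT-20 were below both of its 0 h arrays, the 4 h arrays overlapped with them, and the 8 h array lay between them.

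Counts of groups that did not overlap need no model, but every such count given here, and the probeset counts, were taken after quantile normalization. On the deposited scale all 15 G2/M members had fitted values below 0 at 8 h in 3134 cells. At 8 h, both 3134 arrays were below both 0 h arrays for 21 of 27 G1/S members and 2 of 15 G2/M members (Cenpe and Mki67), where 22.6% of all genes were. They were above both 0 h arrays for 0 G1/S members and for 3 G2/M members, Aurka, Bub1b and Plk1, where 20.2% of all genes were. At 2 h, 8 G1/S and 4 G2/M members were below both 0 h arrays, where 16.3% of all genes were, and 0 were above (14.2%). At 4 h, 9 G1/S and 4 G2/M members were below (20.1%), and 2 G2/M members, Aurkb and Plk1, were above (18.3%). At the level of single probesets, 356 of 459 in the G1/S members (77.6%) were lower at 8 h in both runs, and 90 of 295 in the G2/M members (30.5%), against 33.5% of the probesets of all tested genes. Cenpe, Top2a and Mki67 held 74 of those 90. All 15 probesets of Mcm3, all 11 of Cdt1, all 10 of Ccne2 and all 9 of Rfc3 were lower in both runs, and 0 of 14 of Plk1 were.

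At 2 h and 4 h the G1/S members had smaller values in the same direction. The G1/S members had a median of -0.22 at both 2 h and 4 h, with 26 and 25 of 27 below 0, and that over the G2/M members was -0.06 at 2 h, with 12 of 15 below 0, and 0.04 at 4 h, with 6 of 15 below 0. At 2 h limma called 0 of 42 members (1.23% of all genes) and, with the block, 0 lower (1.05%) and 0 higher (1.96%), with 1 member and 495 genes at an unadjusted p under 0.05. At 4 h it called 0 (1.91%) and 0 with the block (5.19%), with 1 member and 831 genes at an unadjusted p under 0.05. Cdc6 had the lowest value at both times, -0.54 ± 0.35 at 2 h and -0.61 ± 0.35 at 4 h (SE). Averaged over 2, 4 and 8 h, all 27 G1/S members were below 0, with a median of -0.31, and limma called 0 members without the block (2.42%) and 4 lower with it (2.52%, and 6.55% either way), namely Cdc6, Cdt1, Pcna and Rfc3. Without the block, 5 members and 900 genes had an unadjusted p under 0.05 in that average, and with the block the count was 0 without either 0 h array, 1 without the 2 h or the 4 h array of run 1, and 2 without the 8 h array of run 1. These comparisons share the same 0 h arrays, so their values are given side by side only.

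Between 8 h and 2 h, a comparison that does not use the 0 h arrays, the median difference was -0.19 over the G1/S members, with 25 of 27 below 0, and 0.15 over the G2/M members, with 10 of 15 above 0. Limma called 0 members (0.0907% of all genes) and 0 with the block (2.00%), and 2 members and 723 genes had an unadjusted p under 0.05. Ccne2 had the lowest value, -0.75 ± 0.33, and Plk1 the highest, 0.48 ± 0.22 (SE).

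**Figure D3:**
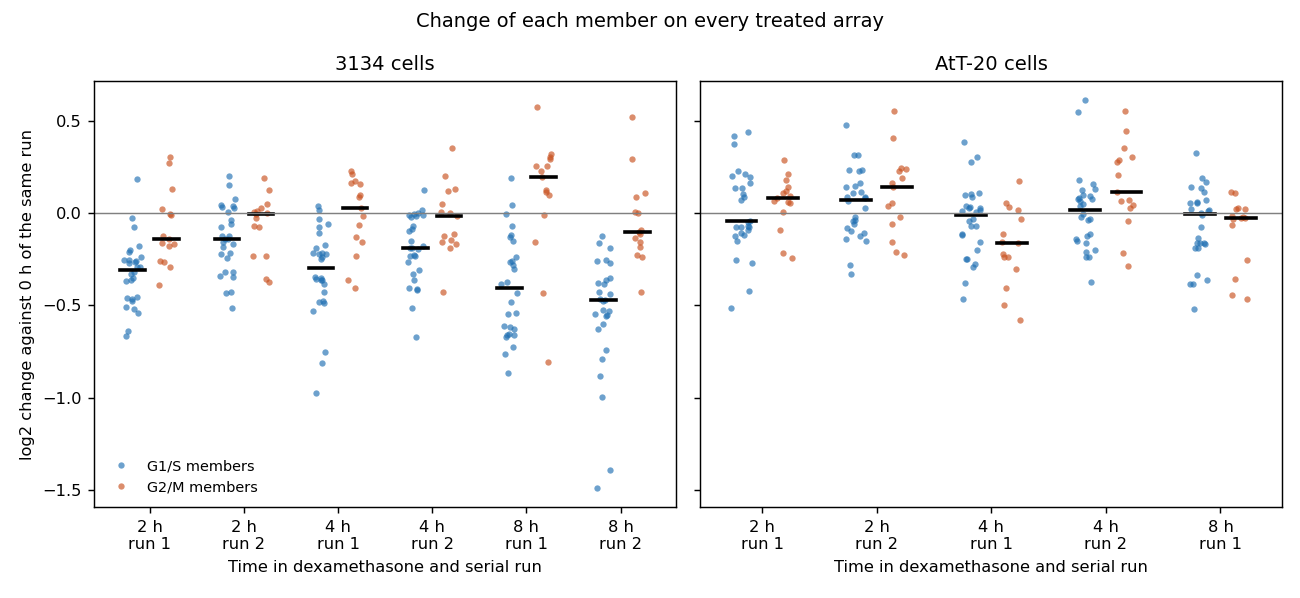
Change of each of the 43 members with a value on every treated array (vertical axis, log2 difference to the 0 h array of the same line and run), for 3134 on the left and AtT-20 on the right, with black bars at the medians. In 3134 cells the G1/S members (blue) sit lower, with medians of -0.41 and -0.47 on the 8 h arrays, while in AtT-20 cells the medians of both groups stay between -0.16 and 0.14, and the G2/M members (orange) of 3134 at 8 h are all below 0 in the fit of the deposited scale.

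In AtT-20 cells, limma called 0 of 42 members at any time. The shares of all genes called were 0.0907% at 2 h, 0.171% at 4 h and 0.121% at 8 h, and 0.323%, 0.857% and 0.444% with the block, and no member was called in those fits either. At an unadjusted p under 0.05 there were 0 members at 2 h and at 4 h and 1 at 8 h, Cdc25c with -0.77, against 237, 337 and 303 genes of all. The median over the G1/S members was 0.03, -0.05 and -0.01 at 2, 4 and 8 h, and over the G2/M members 0.09, -0.02 and -0.14. The single 8 h array is of run 1 and is set against 0 h arrays of both runs, and with the block the G2/M median at 8 h was 0.02 and the value of Cdc25c -0.53, against -0.46 within run 1. Within a run, between 12 and 15 of the 28 G1/S members were below 0 on the 5 treated AtT-20 arrays, against 20 to 28 on the 6 treated 3134 arrays. Cdc6 in AtT-20 cells had 10.07 and 10.21 at 0 h, 10.16 and 10.12 at 2 h, 9.87 and 10.28 at 4 h and 10.21 at 8 h. Both treated arrays were clear of both 0 h arrays in AtT-20 cells at 2 h for 4 members above (Mcm2, Aurka, Cdc20 and Ttk; 11.4% of all genes) and 2 below (E2f2 and Tyms; 10.6%), and at 4 h for 1 above (Cdt1; 9.73%) and 0 below (11.5%). The 8 h values assume that 1 array varies like the other groups.

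The direct test of a difference between the lines used the mean of 2 h and 4 h, which both have 2 arrays in each line. The response of 3134 minus that of AtT-20 had a median of -0.23 over the G1/S members, with 24 of 27 below 0, and of -0.09 over the G2/M members. Limma called 0 members (0.645% of all genes) and 0 with the block (2.73%), and at an unadjusted p under 0.05 there were 0 members and 549 genes. Pcna had the lowest value, -0.67 ± 0.36, and Rfc4 the next, -0.60 ± 0.33 (SE). A difference between the lines in the response of these members was therefore not detected at 2 h and 4 h, and at 8 h, where the values in 3134 cells were lowest, AtT-20 has 1 array only.

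Further replication genes had mostly negative values at 8 h in 3134 cells, like the G1/S members. Both lists were chosen with earlier results of these data known. Of 51 further replication genes 45 were tested, 40 of them were below 0, and the median was -0.31. Limma called 0 without the block (2.19% of all genes) and 5 lower with it (3.60%), Clspn, E2f8, Gins3, Pole4 and Uhrf1. E2f8, a repressor of the E2F family that is itself switched on in S phase, had -0.77 ± 0.20 and Clspn, a checkpoint adaptor at the fork, -0.70 ± 0.27 (SE). Of 58 further mitotic genes 53 were tested, 34 of them were below 0, with a median of -0.07, where 10 of the 15 G2/M members were above 0. None was called by limma in either fit, and 0 had an unadjusted p under 0.05.

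Of 13 tested genes among cyclins D, their kinases, CDK inhibitors, pocket proteins and Myc, limma called 1 in 3134 cells at 8 h, Cdkn1a, which encodes the CDK inhibitor p21. Over all genes 2.19% were called in that comparison, and 7.90% with the block. Cdkn1a had levels of 9.82 and 9.88 at 0 h, 11.67 and 11.17 at 2 h, 10.97 and 10.83 at 4 h, with 10.61 and 10.71 at 8 h in 3134 cells. Every treated array was above both 0 h arrays. It rose by 1.57 ± 0.19 (SE) at 2 h, with a limma adjusted p of 0.000982, a call that was lost on the deposited scale without the block (1.48). The rise was 1.05 ± 0.19 (SE) at 4 h, with a limma adjusted p of 0.0107, and 0.00188 with the block. By 8 h it was 0.81 ± 0.19 (SE), with a limma adjusted p of 0.0452, and 0.00935 with the block. Without the block this call was lost with centred arrays (0.67, adjusted p = 0.122), with no filter (adjusted p = 0.0972) and with the mean over probesets (0.68, adjusted p = 0.0675). With the block it was kept with centred arrays (limma adjusted p = 0.017) and with the mean over probesets (adjusted p = 0.00357). On the deposited scale it was lost with the block (0.36, adjusted p = 0.325) and without it (adjusted p = 0.992). Without the block, leaving out any 1 of the 4 arrays of 0 h and 8 h lost it too (0.76 to 0.86). With the block those values were 0.667 to 0.959. The call at 4 h was also lost, without the block, when any 1 of its 4 arrays was left out (0.98 to 1.12). With the block those values were 0.93 to 1.175. On the deposited scale the call at 4 h was lost with the block (0.69, adjusted p = 0.118) and without it. In AtT-20 cells Cdkn1a stayed between 11.38 and 11.70 on all 7 arrays. With the block, Cdkn1b (0.45 ± 0.17 without it; SE), which encodes the CDK inhibitor p27, was called higher by limma at 8 h in 3134 cells and Ccnd2, the cyclin D2 gene, lower (-0.80 ± 0.35; SE), with adjusted p of 0.0474 and 0.0462.

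**Figure D4:**
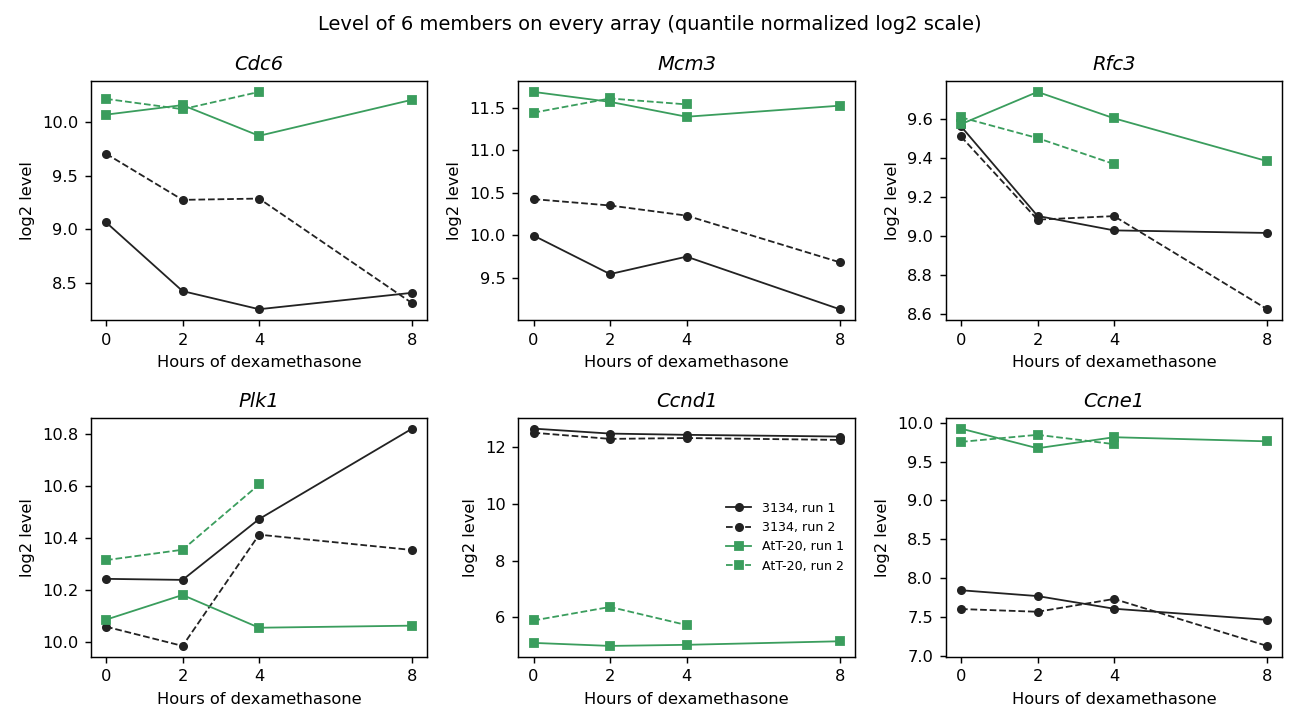
Levels of Cdc6, Mcm3, Rfc3, Plk1, Ccnd1 and Ccne1 on each array (vertical axes, quantile normalized log2 level, with a different range in each panel) against hours of dexamethasone, for 3134 (black) and AtT-20 (green), run 1 with solid and run 2 with dashed lines. Cdc6, Mcm3 and Rfc3 are lower at 8 h than at 0 h in both runs of 3134, Plk1 is higher (not on the deposited scale), and Ccnd1 and Ccne1 differ between the lines at every time.

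At 0 h most G2/M members were higher in 3134 than in AtT-20 cells, and the G1/S members were called lower about as often as all genes. Of the 15 tested G2/M members, 10 were higher and 0 lower in 3134 than in AtT-20 by limma, with a median difference of 0.69. Of the 27 G1/S members, 2 were higher and 9 lower in 3134, with a median of -0.28. In this comparison 54.5% of all genes were called, 24.3% higher and 30.3% lower in 3134, so that the share of G2/M members called higher, 10 of 15, is set against 24.3% and the share of G1/S members called lower, 9 of 27, against 30.3%. With the block, 12 G2/M and 4 G1/S members were higher (29.6% of all genes) and 12 G1/S members lower (37.2%), with 66.8% of all genes called either way. Without any test, both 3134 arrays lay above both AtT-20 arrays for 13 of 15 G2/M and 3 of 27 G1/S members (34.5% of all genes) and below them for 16 of 27 G1/S members and 0 G2/M members (42.6%). With the deposited values the median of all genes between the lines was 0.23. There limma with the block called 17 members higher and 4 lower, and over all genes 3335 higher and 2123 lower. The median over the G1/S members turned to 0.09 on that scale, while all 15 G2/M members were above 0 with a median of 1.06. Relative to the median of all genes, all 15 G2/M members were above 0 on both scales, and 18 of 27 G1/S members were below it on the deposited scale and 19 after quantile normalization.

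Ccnd1 and Ccne1 gave the widest differences. Ccnd1 had 12.66 and 12.51 in 3134 cells, against 5.10 and 5.89 in AtT-20 cells, where every array at every time was below the level filter of log2 6.59 and no detection call was used here. The fitted difference was 7.09 (limma adjusted p = 1.55e-08), a size that is not exact because the AtT-20 side may be background, and all 6 of its probesets were higher in 3134. Ccne1 had 7.84 and 7.60 in 3134 cells, against 9.93 and 9.75 in AtT-20 cells, a difference of -2.12 ± 0.17 (SE; limma adjusted p = 5.83e-07; 4.34-fold lower in 3134). All 15 probesets of Ccne1 were lower in 3134, and so were all 10 of Ccne2, whose difference was -1.34 ± 0.33 (SE; limma adjusted p = 0.0041). E2f2, an activator of the E2F family, was lower in 3134 by -1.12 ± 0.18 (SE), and E2f1 had -0.28 ± 0.16 (SE) and was not called.

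Among the licensing genes, 5 of 10 were lower in 3134 (30.3% of all genes) and 0 higher (24.3%) by limma. Mcm3 had 10.00 and 10.43 in 3134 cells, against 11.69 and 11.44 in AtT-20 cells, a difference of -1.35 ± 0.28 (SE; limma adjusted p = 0.00151). Mcm5, Cdt1, Mcm2 and Orc6 had -0.78, -0.75, -0.75 and -0.56. Cdc6 had -0.76 ± 0.35 (SE) and was called only with the block (limma adjusted p = 0.0848, and 0.00883 with it). None of the 4 genes of helicase activation was called, and at the fork Prim1 was lower (-0.72 ± 0.24; SE) and Pole, the catalytic subunit of polymerase epsilon, higher (0.60 ± 0.18; SE).

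Cenpe had the largest difference of the G2/M members, with 9.01 and 8.99 in 3134 cells, against 7.10 and 7.40 in AtT-20 cells, or 1.75 ± 0.27 (SE; limma adjusted p = 0.000174; 3.36-fold higher), and all 47 of its probesets were higher in 3134. Bub1, a kinase of the spindle checkpoint, had 10.04 and 9.99 in 3134 cells, against 8.67 and 9.04 in AtT-20 cells, or 1.16 ± 0.22 (SE; limma adjusted p = 0.000778). Ccna2, Ccnb2 and Cdc20 were higher in 3134 by 0.98, 0.95 and 0.90, and Kif11, Mki67, Ttk, Bub1b and Aurkb by 0.77, 0.74, 0.69, 0.68 and 0.56. Plk1 and Cdk1 had -0.05 ± 0.22 and -0.09 ± 0.34 (SE) and were not called. Of the 21 called members, 10 lost their call when 1 of the 4 arrays was left out. These were Cdt1, Mcm2, Orc6, Prim1, Aurkb, Mki67 and Kif11 without the 0 h array of 3134 run 1, Pole, Aurkb, Bub1b, Ttk and Mki67 without that of run 2, Orc6, Bub1b and Mki67 without the AtT-20 array of run 1, and Pole, Prim1, Aurkb and Kif11 without that of run 2.

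**Figure D5:**
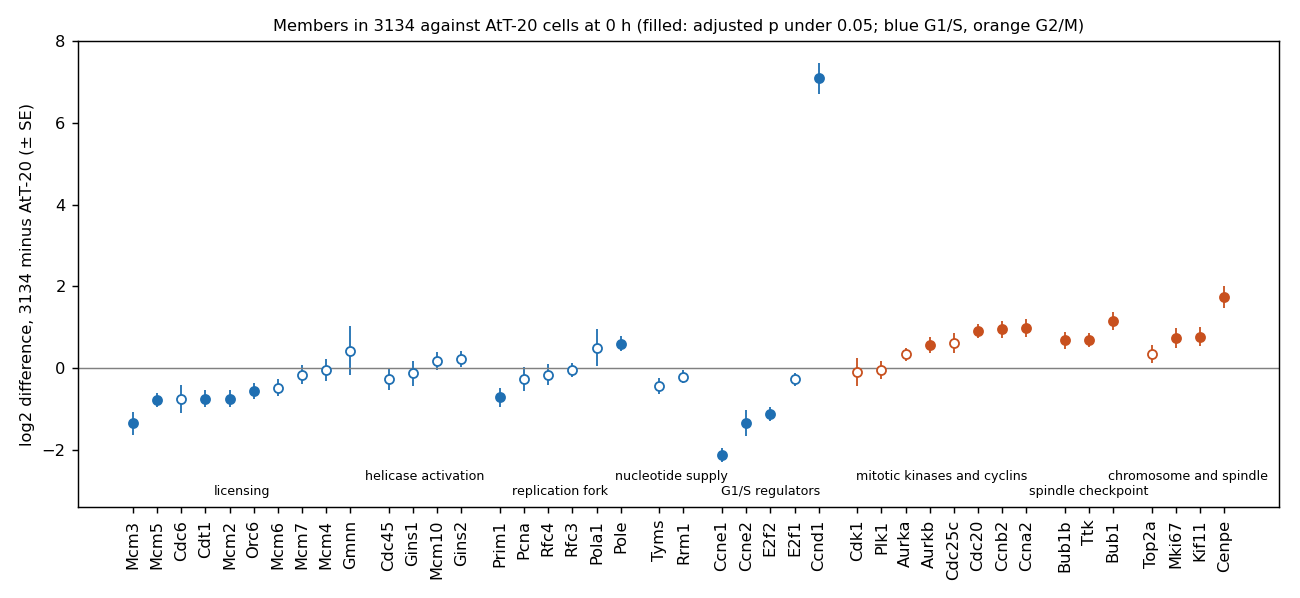
Difference of each tested member between 3134 and AtT-20 cells at 0 h (vertical axis, log2, with its standard error from limma without the block), in order of role and then of size. Filled points have an adjusted p under 0.05, which 10 of the 15 G2/M members reached on the higher side and 9 of the 27 G1/S members on the lower side.

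The further mitotic genes were mostly higher in 3134 at 0 h, and the further replication genes lay near all genes. Of the 53 further mitotic genes tested, 28 were higher and 1, Pttg1, lower in 3134, with a median of 0.59. The largest differences were those of Foxm1 (2.60 ± 0.17; SE), a transcription factor of mitotic genes, Anln (1.83 ± 0.26; SE) and Aspm (1.82 ± 0.31; SE). The 45 further replication genes had a median of -0.07, against -0.10 over all genes, and 5 were higher and 10 lower, where 24.3% and 30.3% of all genes were. Among those called, Cdc25a (-1.58 ± 0.23; SE), Dut (-1.45 ± 0.18; SE) and Orc2 (-1.39 ± 0.23; SE) were the lowest and Dbf4, Rad54l and Asf1b the highest (1.03, 0.87 and 0.87). Of the 13 genes around the CDK4 and CDK6 step, 6 were higher and 3 lower. Cdk6, Myc and Ccnd2 were higher in 3134 by 5.84, 5.33 and 3.84, sizes that are not exact because their AtT-20 levels at 0 h were below log2 6.59. Cdkn1c (with 3134 levels below log2 6.59), Cdkn1a and Cdkn2a were lower by -2.96, -1.75 and -0.83. Genes of the pathway were listed for their known roles, with earlier results of these data known. Beside these line differences the lines differ in tissue of origin, strain and 54.5% of all tested genes.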

How the data were processed

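Total RNA of 2 mouse lines was hybridised to 15 one-colour exon arrays. The deposited log2 values, 1 per probeset and array for 228090 probesets, come from RMA in Affymetrix Expression Console, per the submitters' processing notes, which as used here give no version or setting. Normalized values had been assumed, but array medians ran from 6.76 to 8.14, so quantile normalization was applied. Of the probesets, 207232 have 1 gene symbol, 3882 several and 16976 none in the platform annotation; only the first kind was used. Symbols were updated through RefSeq genes of GRCm38.p6 (names and promoters only): 14055 of 16207 were current, 2111 updated and 41 kept. A gene's value was the median over its probesets (at least 3), and 9919 genes with at least 1 group mean at or above log2 6.59 (40th percentile of the values) were tested.

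The model for all 15 arrays was fitted in R 4.3.3 by limma (version 3.58.1, functions lmFit and eBayes, moderated tests, 2-sided; tables were read with the package data.table, version 1.17.8), with 1 mean per line and time and 7 residual degrees of freedom (5 with the block). Benjamini-Hochberg adjustment was over all tested genes at 0.05, and all calls are those of limma. Precision is limited by the number of arrays, with a median standard error for 2 against 2 arrays of 0.215 (log2), and 0.264 for AtT-20 at 8 h. The fit was tested on simulated data. Deviations of arrays of the same run from their group means correlated across genes at 0.491 to 0.591 in 9 pairs of groups of the same line, and at 0.276 to 0.39 in 12 pairs of groups of different lines, so the run pairs the arrays and the fit with the run as a block stands beside the fit without it where calls differ.

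The highest correlation between 2 arrays was 0.985, so none was treated as a repeat. Alternatives were the deposited and the centred scale, other filters, the mean over probesets, an intensity trend and leaving out each array. Genes named were all members, the listed genes past the threshold (at most 3 each way per list and comparison), and Fkbp5 and Per1. Clspn, E2f8, Gins3, Pole4, Uhrf1, Cdkn1b, Ccnd2 and the marker genes Krt8, Krt14 and Krt18 were named after their values were seen. The members and the lists were chosen with earlier results of these data known. Of the other marker lists, 1 of 4 immune, 1 of 4 endothelial and 0 of 5 measured markers of other pituitary cells reached log2 6.59 in 3134 cells at 0 h, and 0 of each in AtT-20 cells. Figures were drawn with matplotlib 3.10.9, and promoters were read with pandas 2.3.3 in Python 3.11.15.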

Additional observations from a re-analysis of the deposited data

Results flagged for a closer look

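Cdkn1a, a listed CDK inhibitor gene that is not one of the 46 genes, responded differently in the 2 lines by a test of the difference itself. Its mean response at 2 h and 4 h was higher in 3134 than in AtT-20 cells by 1.34 ± 0.23 on the log2 scale (SE). The limma adjusted p was 0.0192, and 0.00264 with the block. On deposited values with the block the difference was 1.25 (limma adjusted p = 0.0139). Without the block, the call was lost without the 0 h array of run 1 or 2 of 3134 (1.31 and 1.37). It was also lost without that of run 1 or 2 of AtT-20 (1.34 each). With the block, leaving out these arrays gave values of 1.215 to 1.46. Without the block the call was lost with no filter (limma adjusted p = 0.0505) and on the deposited scale as well. All 4 treated 3134 arrays at these times were above both 0 h arrays of that line, while the AtT-20 arrays overlapped. At 0 h it was lower in 3134 by -1.75. None of the 42 tested members differed in this test.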

How the results depend on the processing

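Counts of members called by limma depended on the block. Counts over all genes moved with the settings too and are given in brackets. For 8 h against 0 h in 3134 the count was 0 (217 over all). It was 11 with the replicate block (784) and 12 with centred arrays and the block (934). With an intensity trend and the block it was 13 (1 higher, 12 lower, 929 over all). With the mean over probesets and the block it was 18 (1 higher, 17 lower, 1670 over all). On the deposited scale with the block it was 19 (1163). Without the block it was 1 with a filter at the 60th percentile (214), 2 with the mean over probesets (404) and 1 with an intensity trend (235). With the replicate block the count between the lines at 0 h was 28, and the block alone added calls in no other comparison than these and the mean of the times. For the mean of 2, 4 and 8 h in 3134 the count was 0 (240 over all). Each with the block, it was 4 (650), 5 centred (665), 7 with a trend (695), 12 with the mean over probesets (1099) and 9 on the deposited scale (541). It was 1 with the mean over probesets alone (390). With the block, 4 h gave 3 on the deposited scale (471 over all), 1 centred (554), 4 with the mean over probesets (969) and 1 with a trend (555). In that same order of settings with the block, 8 h against 2 h gave 2, 2, 6 and 3 (260, 340, 845 and 329 over all), with 1 higher in each of the last 2. At 2 h the count was 1 with the mean over probesets and the block (488). The difference of responses gave 3 with the mean over probesets (496) and 1 with a trend (293), each with the block. Between the lines at 0 h the count of 21 (5408 over all) became 3 on the deposited scale without the block (1979). In 3134 without 1 array, counts ran from 0 to 0 at 8 h (0 to 6 with the block), 0 to 1 for the mean, reached without the 8 h array of run 1 (0 to 4 with the block), and with the block 0 to 1 for 8 h against 2 h and for the difference of responses, reached without the 8 h array of run 1 of 3134 and the 4 h array of run 1 of AtT-20; between the lines they ran from 14 to 18 (21 to 24 with the block). For the mean with the block, the count was 1 without the 4 h or the 2 h array of run 1 and 2 without the 8 h array of run 1. AtT-20 counts stayed at 0 under every alternative run. Fits with the block and another change at once, other than the deposited scale, were chosen after seeing the data. Gmnn, with a difference of 0.43 between the lines at 0 h, turned to -0.061 without the AtT-20 0 h array of run 1, the lowest of its values without 1 array, the highest being 0.921. A tally of single members under the alternatives took only members called without or with the block, so it does not describe all members. The fit with the block is itself 1 of these alternatives. Of 208 such values at 8 h, 140 kept their side of the threshold and 68 passed it. No call could be lost at 8 h, since none was made without the block. For the lines at 0 h, of 530 values 443 kept their side, 49 lost the call, 37 passed the threshold and 1 reversed. All other calls in 3134 against its own earlier times were lower. Causes of these shifts were not tested.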
